A study of Mus musculus with 18 samples.

Results

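The patatin-like lipases Pnpla2, Pnpla3 and Pnpla5 were followed mouse by mouse in the liver of male CD-1 mice given bisphenol A, a plastics monomer with weak estrogenic activity. Every probe that carries 1 of these 3 gene names was taken, which gave 4 probes of the 41174 on the array, and 3 genes of the 27845 named there. Pnpla3 and Pnpla5 were read by 1 probe each and Pnpla2 by 2 probes. The 3 genes were selected on their measured levels in control, low-dose and high-dose mice, so these values are given as a description and carry no test. Genes outside this set were tested.

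The study compared 3 groups of 6 mice, with 1 liver per array and no pooling. Control mice received 0 µg bisphenol A per kg body weight per day, low-dose mice 50 and high-dose mice 5000, all mixed into the same powdered diet of 49% starch and 24.4% sucrose. All 18 mice started the diet at 5 weeks of age, ate it for 28 days and were 9 weeks old when the liver was taken. The doses are averages calculated from an assumed food intake, and the labels give no intake or fasting state of single mice.

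Patatin-like lipases share a catalytic fold first described in patatin, a storage protein of the potato tuber. Pnpla2, also called adipose triglyceride lipase, removes the first fatty acid from stored triglyceride, and in liver it feeds fatty acids to oxidation. Pnpla3, or adiponutrin, sits on lipid droplets, and its transcript in rodent liver is low in fasting and high after refeeding with carbohydrate, through the transcription factor SREBP-1c. Pnpla5 is a less studied relative whose product can hydrolyse triglyceride in cell assays.

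The regions just before the start sites are shown because Pnpla3 and Pnpla5 had like profiles over these livers while 1 Pnpla2 probe had the opposite one. Each is the 250 bases upstream of the start site in the RefSeq promoter table (build GRCm38.p6), which held all 3 genes, read 5′ to 3′ on the strand of the gene. Pnpla3 lies on the plus strand (chr15:84167566-84167815), Pnpla5 on the minus strand (chr15:84123176-84123425) and Pnpla2 on the plus strand (chr7:141454938-141455187). Capitals mark matches to the motifs searched on both strands.
Pnpla3: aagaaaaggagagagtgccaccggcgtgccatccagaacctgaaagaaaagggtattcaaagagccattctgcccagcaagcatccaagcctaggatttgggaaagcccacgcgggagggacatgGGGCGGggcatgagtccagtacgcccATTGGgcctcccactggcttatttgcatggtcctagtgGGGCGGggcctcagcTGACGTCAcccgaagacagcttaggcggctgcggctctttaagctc
Pnpla5: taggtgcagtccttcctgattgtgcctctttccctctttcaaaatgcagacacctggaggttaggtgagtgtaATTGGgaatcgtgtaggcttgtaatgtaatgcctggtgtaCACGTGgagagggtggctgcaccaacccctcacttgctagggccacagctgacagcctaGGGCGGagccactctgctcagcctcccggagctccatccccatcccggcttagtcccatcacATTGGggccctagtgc
Pnpla2: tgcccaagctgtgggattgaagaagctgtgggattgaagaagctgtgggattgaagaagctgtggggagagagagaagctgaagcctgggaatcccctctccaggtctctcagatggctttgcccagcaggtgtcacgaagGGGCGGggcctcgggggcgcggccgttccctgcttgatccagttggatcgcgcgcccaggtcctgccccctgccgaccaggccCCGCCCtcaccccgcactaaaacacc
The motifs searched were the E-box CACGTG, the cyclic AMP response element TGACGTCA, the GC box GGGCGG, the CCAAT box CCAAT, the sterol regulatory element TCACNCCAC and the forkhead site GTAAACA. The Pnpla3 window held 1 cyclic AMP response element, 46 bases before the start site, a motif present in 1.55% of all 32851 promoters of this length. The Pnpla5 window held 1 E-box, 137 bases before the start site, which 6.02% of promoters have. GC boxes stood in all 3 windows, with 2 in Pnpla3, 1 in Pnpla5 and 2 in Pnpla2, and were found in 32.7% of promoters. The CCAAT box, found in 33.8% of promoters, stood once on the opposite strand in Pnpla3 and at 2 places on the opposite strand in Pnpla5. The sterol regulatory element and the forkhead site, in 1.05% and 3.17% of promoters, matched in none of the 3 windows. No 2 matches overlapped. A match of letters is no evidence that a factor binds there.

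Array brightness differed before scaling. The 75th percentile of spot intensity averaged 230.1 ± 43.1 in the control group, 295.4 ± 44.0 in low-dose mice and 291.8 ± 34.1 in high-dose mice (SD, n = 6 each). A level below is a probe's log2 intensity after subtracting that of its array's 75th percentile, so 0 means as bright as that percentile, and levels of different probes are not set against each other. Arrays with the same scan time in the file headers were taken to share 1 slide, and the position was read from the array code. By this reading all 5 slides carried low-dose and high-dose mice, and controls were on 4 of them. Controls lay at slide positions 1 and 4, low-dose mice at 2 and 3 except low-dose mouse 5 at position 1, and high-dose mice at 2, 3 and 4. In limma's test over the 25427 probes that passed the filter on dim signal, 57 differed between low dose and control, 0 between high dose and control and 11 between the doses, at an adjusted p under 0.05. With slide as a block these counts were 4, 0 and 0, and without any 1 mouse the low-dose count was 7 to 109. The unadjusted p was under 0.05 for 12.3% of the probes between low dose and control, 7.29% between high dose and control and 7.66% between the doses.

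Pnpla3 was far above control in all 6 low-dose mice and in 3 of the 6 high-dose mice. Its probe, A_51_P389265, lies on chr15:84017159-84017218 (plus strand, build mm8) in transcript NM_054088. The probe passed the filter, was well above background on 18 of 18 arrays and was saturated on 0. Low-dose mice 1 to 6 read 5.96, 4.10, 4.07, 4.35, 3.44 and 5.11, against 0.07, 0.01, 1.72, 0.47, 0.50 and 0.42 in control mice 1 to 6. The groups did not overlap: the lowest low-dose mouse was 1.72 above the highest control, control mouse 3. In the intensities as deposited, before scaling, the low-dose mice spanned 2478 to 21802 with a median of 5361, against 186.8 to 743.5 with a median of 314.5 in controls.

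The mean Pnpla3 level was 4.51 ± 0.89 in low-dose mice and 0.53 ± 0.62 in controls (SD, n = 6 each), a difference of 3.97 ± 0.74 (SE) on the log2 scale, or 15.7-fold. Ranked by this difference, Pnpla3 was number 1 of 25427 probes. Complete separation, with the whole low-dose group above the whole control group, occurred for 0.802% of the 25427 probes. Nothing is read from that share for Pnpla3, since the gene was chosen with these values known.

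The high-dose mice did not form 1 level of Pnpla3. High-dose mice 1 to 6 read 0.72, 3.86, 0.16, 4.14, 0.00 and 4.45. Mice 2, 4 and 6 were above every control and inside the low-dose span, and mice 1, 3 and 5 were inside the control span or just below it. The mean of 2.22 ± 2.13 (SD, n = 6) therefore describes no single high-dose mouse, and its difference from the control mean was 1.69 ± 0.74 (SE). The SD of Pnpla3 among high-dose mice stood at the 99.7th percentile of all probes in that group, whose median SD was 0.29. Against the low dose, the high-dose mean differed by -2.28 ± 0.74, and the groups overlapped.

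**Figure D1:**
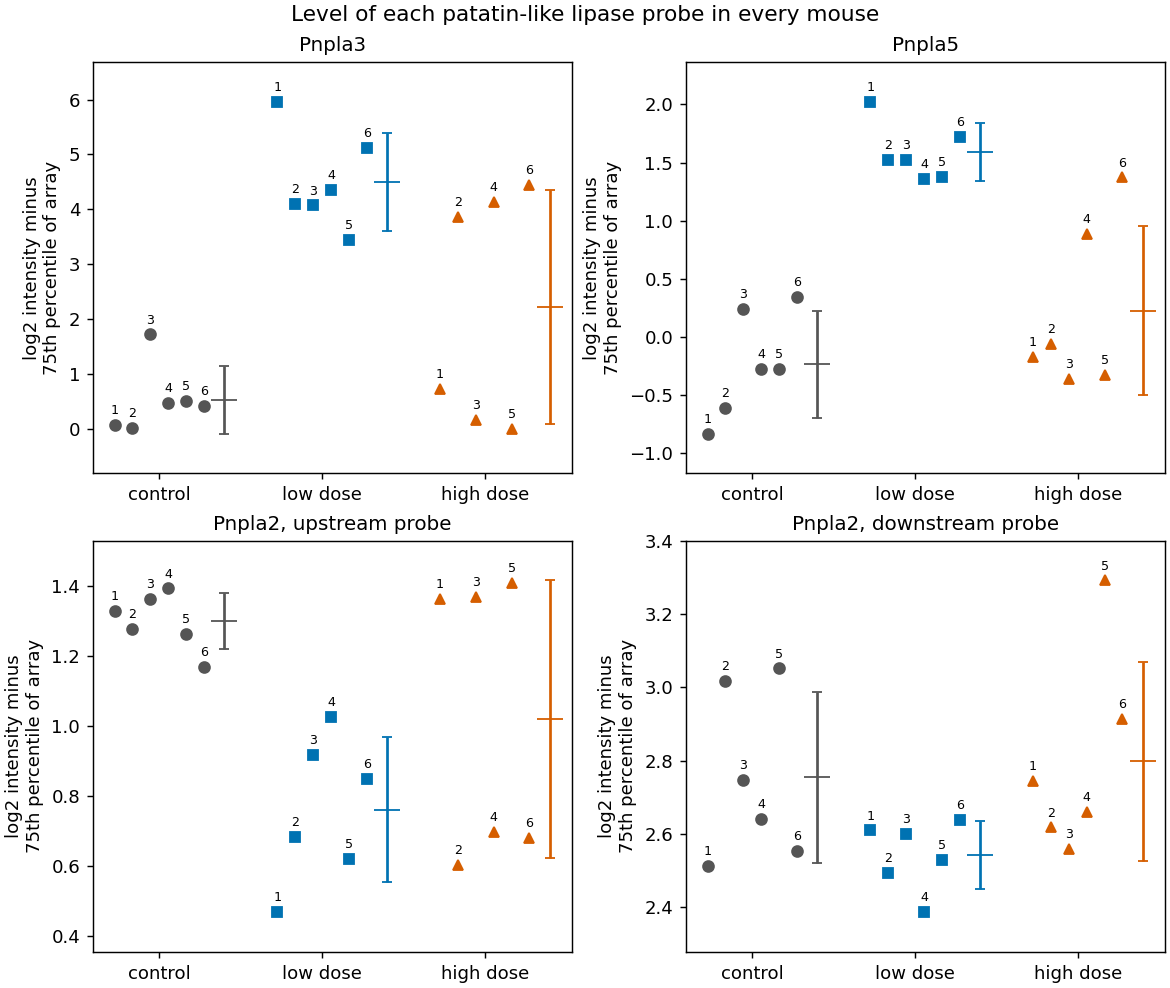
Scaled log2 level (75th percentile of each array set to 0, vertical axis) of the 4 probes in every mouse, with the mouse number above each point, in control, low-dose and high-dose mice; the bar beside each group is the mean ± SD (n = 6). High-dose mice 2, 4 and 6 read 3.86 to 4.45 for Pnpla3 and mice 1, 3 and 5 read 0.00 to 0.72, while the upstream Pnpla2 probe read 0.60 to 0.70 in mice 2, 4 and 6 and 1.36 to 1.41 in mice 1, 3 and 5.

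Pnpla5 followed Pnpla3 at the low dose, at a smaller size. Its probe, A_51_P334804, lies on chr15:83940454-83940513 (minus strand, build mm8) in transcript NM_029427, and was also well above background on 18 of 18 arrays and saturated on 0. Low-dose mice 1 to 6 read 2.02, 1.52, 1.52, 1.36, 1.37 and 1.72, against -0.83, -0.61, 0.24, -0.28, -0.28 and 0.34 in control mice 1 to 6. The lowest low-dose mouse was 1.02 above the highest control, so the groups did not overlap. The means were 1.59 ± 0.25 in low-dose mice and -0.24 ± 0.46 in controls, a difference of 1.82 ± 0.28 (SE) or 3.54-fold, which ranked 35 of 25427 probes. With only these 2 groups in the fit, the SE was 0.20.

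High-dose mice 1 to 6 read -0.17, -0.06, -0.36, 0.89, -0.33 and 1.37 for Pnpla5. Mice 4 and 6 were above every control, and mouse 6 was the only high-dose mouse inside the low-dose span. Mouse 2, whose Pnpla3 level was 3.86, stayed within the control span for Pnpla5, so the genes parted in that liver. The high-dose mean of 0.22 ± 0.73 differed from the control mean by 0.46 ± 0.28 and from the low-dose mean by -1.36 ± 0.28 (SE).

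The 2 probes of Pnpla2 gave different pictures. Both are matched to transcript NM_025802 on the plus strand of chromosome 7 (build mm8). The downstream probe, A_51_P197213, lies on chr7:141311351-141311410, and the upstream probe, A_52_P681771, on chr7:141310521-141310580, starting 830 bases before the other. Both were well above background on 18 of 18 arrays and saturated on 0. Whether the probes read different transcript forms was not tested.

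At the upstream Pnpla2 probe, low-dose mice 1 to 6 read 0.47, 0.68, 0.92, 1.03, 0.62 and 0.85, against 1.33, 1.28, 1.36, 1.39, 1.26 and 1.17 in control mice 1 to 6. All low-dose mice lay below all controls, which was the case for 1.03% of the 25427 probes, and the gap was 0.14. The means were 0.76 ± 0.21 in low-dose mice and 1.30 ± 0.08 in controls (SD, n = 6 each), a difference of -0.54 ± 0.15 (SE), or 0.688 times the control level. With only these 2 groups in the fit, the SE was 0.10. The control SD of 0.08 was at the 3.29th percentile of all probes, against a median SD of 0.25.

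High-dose mice 1 to 6 read 1.36, 0.60, 1.37, 0.70, 1.41 and 0.68 at this probe. Mice 2, 4 and 6 were below every control and mice 1, 3 and 5 were at the control level, the mirror image of Pnpla3. The high-dose mean was 1.02 ± 0.40, with a difference of -0.28 ± 0.15 from control and 0.26 ± 0.15 from the low dose (SE).

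The separation at the upstream Pnpla2 probe depended on the scaling. It was present after quantile normalisation and in the authors' deposited value table, where low-dose mice spanned 8.48 to 8.92 and controls 9.06 to 9.21 (log2). The groups overlapped with array medians as the scale (4.02 to 4.59 at the low dose and 4.49 to 5.00 in controls) and with normexp background correction (0.20 to 0.64 at the low dose and 0.20 to 0.96 in controls). They also overlapped in the unscaled log2 intensities, at 8.45 to 9.23 in low-dose mice and 8.81 to 9.53 in controls, where the median difference over all probes was 0.34. The low-dose minus control difference was negative under each of these scalings, at -0.54 with array medians, -0.52 with quantiles, -0.46 in the deposited table, -0.30 with normexp and -0.17 unscaled. Pnpla3 and Pnpla5 separated low-dose mice from controls under all 6 of them, the 75th percentile included.

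At the downstream Pnpla2 probe, low-dose mice 1 to 6 read 2.61, 2.49, 2.60, 2.39, 2.53 and 2.64, against 2.51, 3.02, 2.75, 2.64, 3.05 and 2.55 in control mice 1 to 6. High-dose mice 1 to 6 read 2.75, 2.62, 2.56, 2.66, 3.29 and 2.91. All 3 groups overlapped, and mice 2, 4 and 6 of the high dose did not lie apart from mice 1, 3 and 5. The mean differences were -0.21 ± 0.13 for low dose minus control, 0.04 ± 0.13 for high dose minus control and 0.26 ± 0.13 for high minus low dose (SE). The direction at the low dose turned to 0.06 with normexp background correction and to 0.15 without scaling.

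The opposite course of Pnpla3 and the upstream Pnpla2 probe was measured by scaling each profile so that its lowest mouse is 0 and its highest 1. With Pnpla2 turned upside down, the mean absolute difference between the profiles over the 18 mice was 0.125, which ranked 8 among 24873 probes compared in this way (median 0.368). The downstream probe had 0.329 and ranked 7176. Pnpla5 and Pnpla3, not turned, differed by 0.123, rank 8 of 24873 (median 0.388). These are descriptions over the same 18 arrays, with no p, because the mice lie in separate clusters. The genes were also selected on their levels in these mice, so nothing is read from the ranks. The likeness is given only for the levels used here, while the separation at the upstream Pnpla2 probe depended on the scaling.

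**Figure D2:**
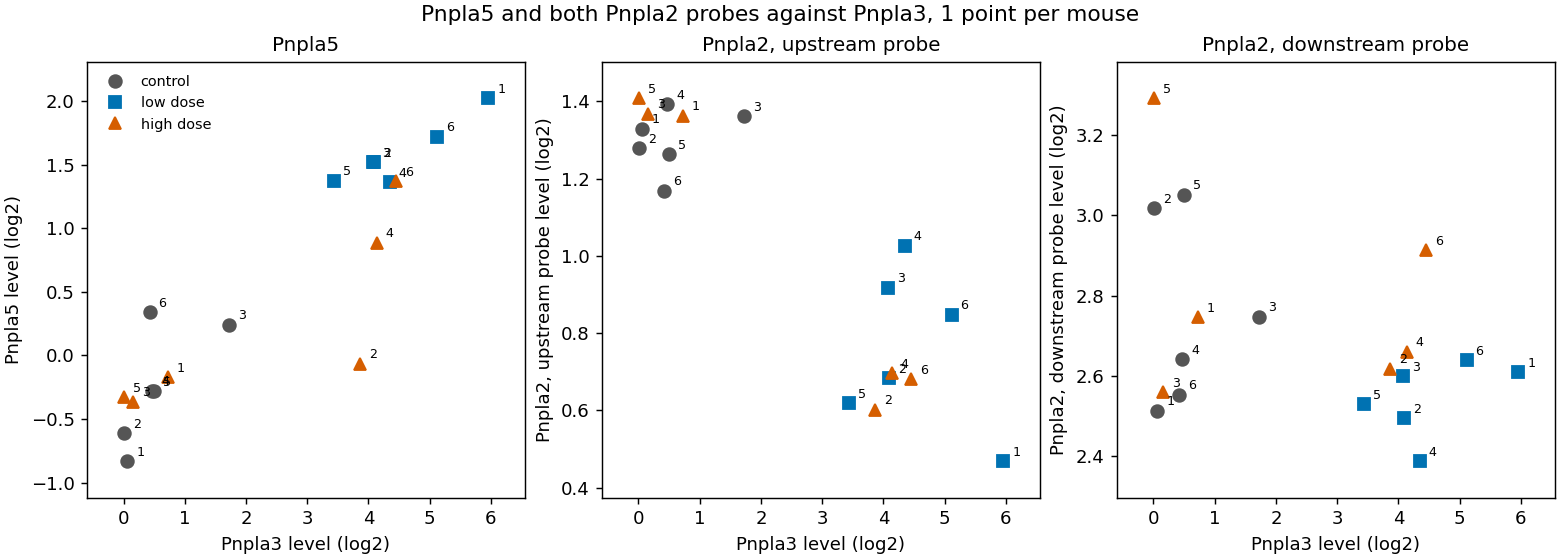
Level of Pnpla5, the upstream and the downstream Pnpla2 probe (vertical axes, log2) against the Pnpla3 level (horizontal axis, log2), 1 numbered point per mouse, for control, low-dose and high-dose mice. All 6 low-dose mice and high-dose mice 2, 4 and 6 lie at a Pnpla3 level of 3.44 to 5.96 and an upstream Pnpla2 level of 0.47 to 1.03, and the remaining mice lie at 0.00 to 1.72 and 1.17 to 1.41; the downstream probe shows no such separation.

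The comparison was repeated within slides, since slides held both kinds of mice. Each within-slide value rests on only 1 or 2 mice per group. They are the same mice as above, so these values are no further result. On each of the 4 slides with controls, Pnpla3 was higher in low-dose mice, by 3.25 to 4.69, and Pnpla5 by 1.38 to 2.31. The upstream Pnpla2 probe was lower on all 4, with differences of -0.74 to -0.35, and the downstream probe too, at -0.45 to -0.04. High-dose minus control values went both ways within slides, at -0.94 to 3.85 for Pnpla3, -0.34 to 0.80 for Pnpla5 and -0.68 to 0.11 for the upstream Pnpla2 probe. For high minus low dose, Pnpla5 was negative on all 5 slides, from -1.76 to -0.63, while Pnpla3 ran from -4.19 to 0.07.

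Position on the slide went largely with group, and no model held it. Low-dose mouse 5, the only low-dose mouse at position 1, read 3.44 for Pnpla3, against 0.07, 0.47 and 0.50 in control mice 1, 4 and 5 at that position. At the upstream Pnpla2 probe the same mouse read 0.62, against 1.33, 1.39 and 1.26. At position 4, high-dose mice 4 and 6 read 4.14 and 4.45 for Pnpla3, against 0.01, 1.72 and 0.42 in control mice 2, 3 and 6.

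**Figure D3:**
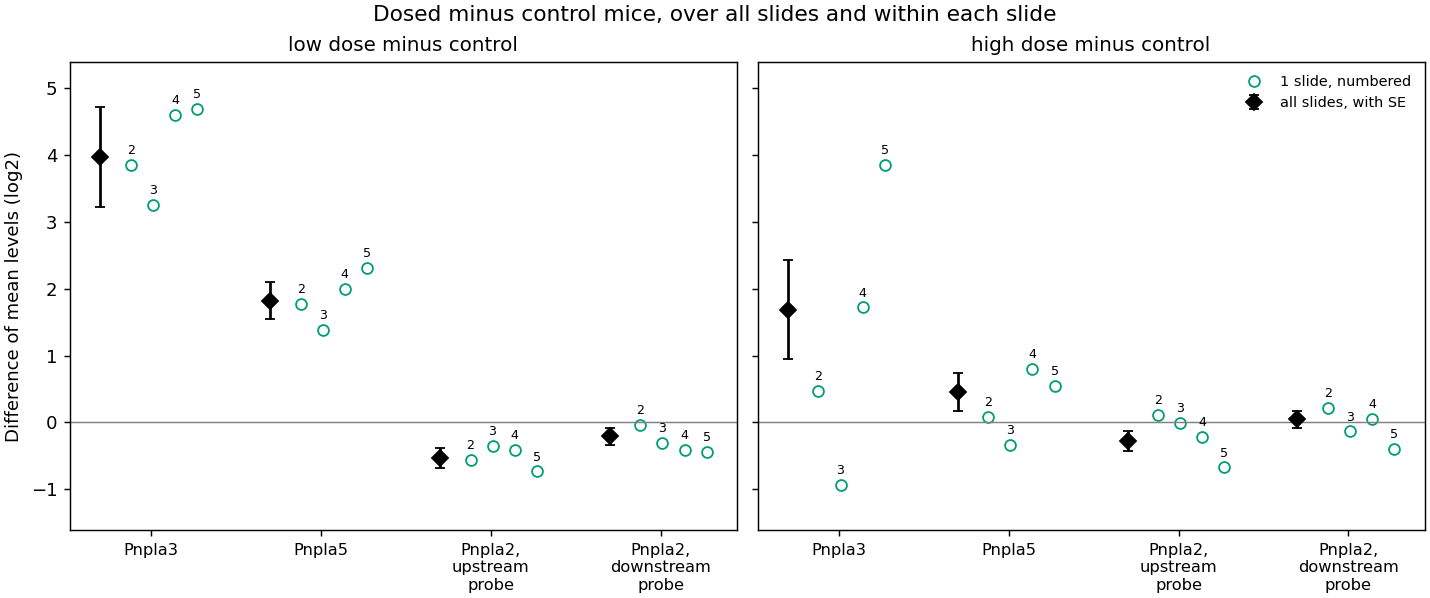
Difference of mean level (log2, vertical axis) between dosed and control mice for the 4 probes, over all slides (filled diamonds, bars SE of the fit) and within each slide that held both groups (open circles, with the slide number). Each open circle rests on 1 or 2 mice per group. At the low dose every within-slide value has the sign of the overall one. At the high dose Pnpla3 runs from -0.94 on slide 3 to 3.85 on slide 5.

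None of the 4 measured relatives of these genes passed the test. Pnpla6 and Pnpla7 are lysophospholipases of the endoplasmic reticulum and lipid droplet, Pnpla8 is a calcium-independent phospholipase of mitochondria and peroxisomes, and Pla2g6 is a largely cytosolic one. Of these 4 genes, 0 passed in limma's test in low dose against control, where 0.157% of all probes were called higher and 0.0669% lower. An unadjusted p under 0.05 was found for 1 of the 4 and for 12.3% of all probes. The brightest probes differed from control by 0.06 ± 0.10 for Pnpla6 (adjusted p = 0.862), 0.08 ± 0.09 for Pnpla7 (0.785), -0.22 ± 0.08 for Pnpla8 (0.238) and -0.31 ± 0.16 for Pla2g6 (0.463). At the high dose all 4 were lower than control, by -0.24 ± 0.09 for Pnpla7 (adjusted p = 0.635) and by smaller amounts for the others. In limma's test 0 passed, and 2 of the 4 had an unadjusted p under 0.05, as had 7.29% of all probes. Pnpla1 is not analysed here.

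Genes that act with Pnpla2 on the lipid droplet did not pass the test. Of 24 measured genes for lipolysis partners and other lipases, low-dose means were below control for 20 and above it for 4, with a median difference of -0.24 against -0.02 over all probes. None of the 24 passed in limma's test, and 7 had an unadjusted p under 0.05, as had 12.3% of all probes. Plin2, the main perilipin of the hepatocyte lipid droplet, stood at 7.56 ± 0.14 in low-dose mice and 8.11 ± 0.20 in controls (difference -0.54 ± 0.15, adjusted p = 0.137), with its probe saturated on 3 arrays. Plin5, a perilipin that docks droplets to mitochondria and binds Pnpla2, differed by -0.55 ± 0.17 (adjusted p = 0.19). Hsd17b11, a droplet-associated dehydrogenase, differed by -0.45 ± 0.15 (adjusted p = 0.213), and Ces1g, a liver carboxylesterase, by -1.53 ± 0.52 (adjusted p = 0.227).

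Among direct regulators of Pnpla2, Abhd5 and G0s2 went apart in sign at the low dose, and neither passed. These were chosen for naming after their values were seen, and they are not a full set of its regulators. Abhd5, the co-activator of Pnpla2, had 1.67 ± 0.66 in low-dose mice and 1.11 ± 0.20 in controls (difference 0.56 ± 0.24, adjusted p = 0.343). G0s2, an inhibitor of Pnpla2, had 3.12 ± 0.71 in low-dose mice and 4.01 ± 0.71 in controls (difference -0.89 ± 0.57, adjusted p = 0.573). Hilpda, from the same list, differed by -0.04 ± 0.16 at the low dose (adjusted p = 0.942 in limma's test). At the high dose, Abhd5 differed from control by -0.18 ± 0.24 and G0s2 by -0.48 ± 0.57.

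High-dose livers were compared with the same controls for the same list. Of the 24 genes, 20 were lower and 4 higher, with a median of -0.21 against -0.01 over all probes. In limma's test 0 passed, as did 0% of all probes in either direction, and 1 of the 24 had an unadjusted p under 0.05, as had 7.29% of all probes. Over all 25427 probes the smallest adjusted p in this comparison was 0.177, and 1853 probes had an unadjusted p under 0.05. The lowest p values were those of Plin5 (difference -0.36 ± 0.16, adjusted p = 0.668), Aadac, an arylacetamide deacetylase (-0.22 ± 0.12, 0.718), Fitm2, a protein of droplet formation (-0.34 ± 0.19, 0.726), and Ces1d, a triglyceride hydrolase (-0.29 ± 0.16, 0.729).

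**Figure D4:**
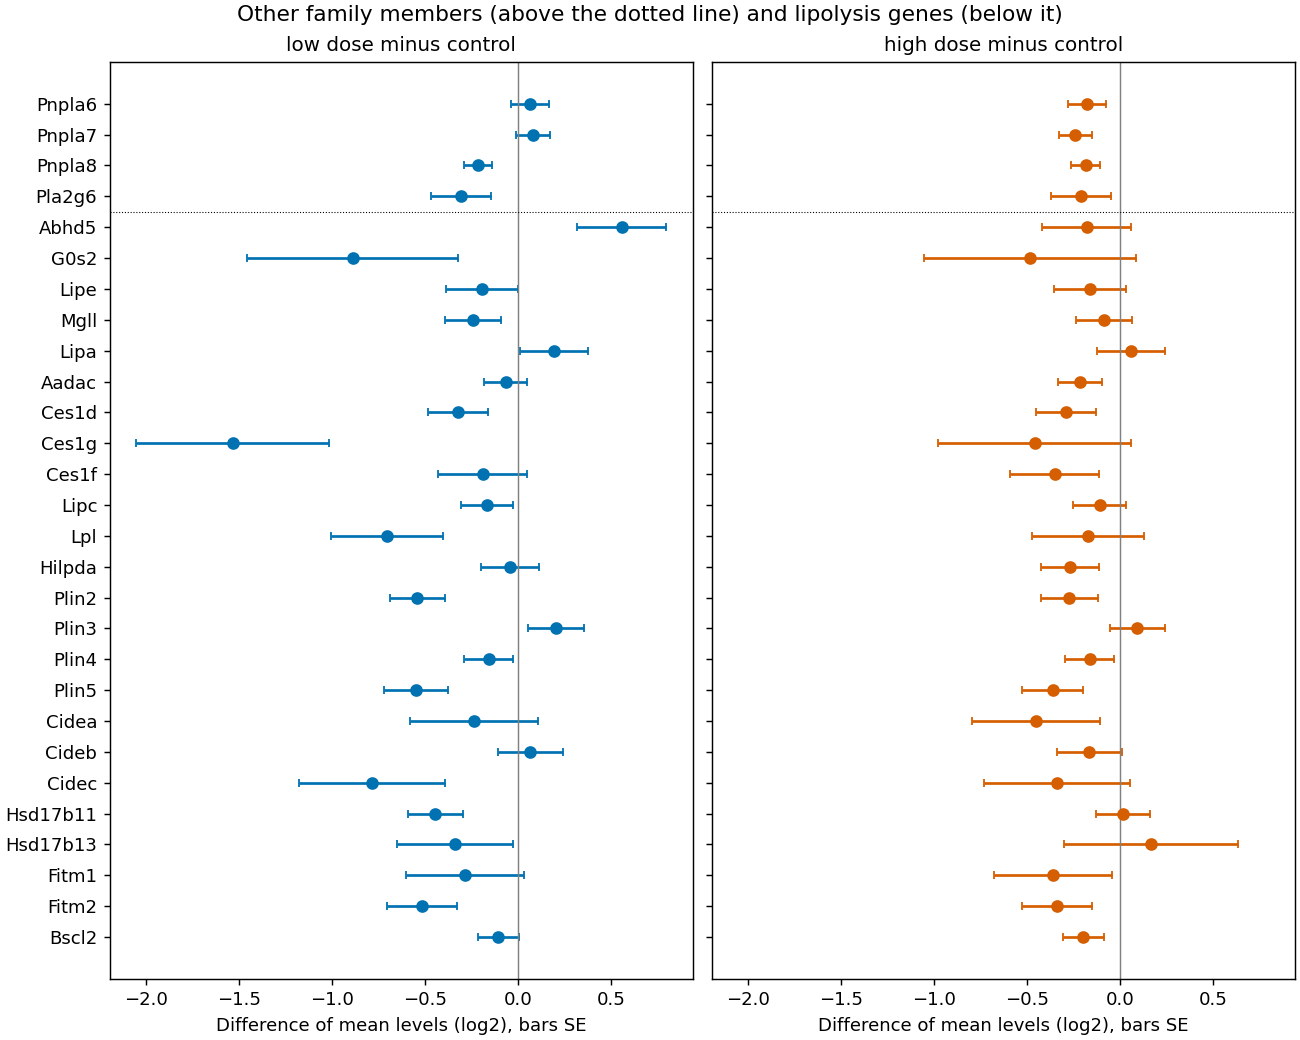
Difference of mean level from control (log2, horizontal axis, bars SE) at the low dose (left) and the high dose (right) for the brightest probe of 4 other family members, above the dotted line, and 24 lipolysis genes, below it. Of the lipolysis genes, 20 of 24 lie left of 0 in each panel, Abhd5 lies at 0.56 at the low dose, and none passed the test; Hsd17b13 had values on only 9 of the 18 arrays and Plin2 and Plin5 on 17 each.

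Of 12 measured genes of triglyceride synthesis, the pathway that fills the droplet, 2 rose at the low dose and 0 fell, where 0.157% of all probes were called higher and 0.0669% lower. Gpam, the mitochondrial enzyme that adds the first fatty acid to glycerol phosphate, was at 1.41 ± 0.74 in low-dose mice and -0.63 ± 0.34 in controls (difference 2.04 ± 0.32, adjusted p = 0.0174). Lpin1, a phosphatidate phosphatase, was at 2.39 ± 0.36 in low-dose mice and 1.31 ± 0.19 in controls (difference 1.08 ± 0.21, adjusted p = 0.0454). With slide as a block neither passed (adjusted p = 0.123 for Gpam and 0.177 for Lpin1). The other Lpin1 probes, all dimmer, differed by 1.09 to 1.20 and did not pass in limma's test (adjusted p = 0.0614 to 0.0711). Lpin3, a relative of Lpin1, differed by 0.31 ± 0.13 (adjusted p = 0.332) and Agpat3, an acyltransferase, by -0.16 ± 0.07 (adjusted p = 0.343). The median over the 12 was 0.17, against -0.02 over all probes. At the high dose 0 of the 12 passed in limma's test. An unadjusted p under 0.05 was found for 3 of the 12 and for 7.29% of all probes. Gpam differed from control by 0.60 ± 0.32 (adjusted p = 0.719), Lpin3 by 0.37 ± 0.13 and Agpat3 by -0.20 ± 0.07. Mogat2, a monoacylglycerol acyltransferase, differed by 0.79 ± 0.32.

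Pnpla3 is a known SREBP-1c target, and 29 genes for SREBP-1c, ChREBP, LXR and their targets were measured beside it. Read from the brightest probe, 3 rose at the low dose and 0 fell, where 0.157% of all probes were called higher and 0.0669% lower. The median difference was 0.25, against -0.02 over all probes. Counting any probe of a gene, 6 of the 29 rose and 0 fell. The shares of 0.157% and 0.0669% count single probes, so this count by gene has no matching share here. Thrsp, a regulator of lipid synthesis, differed from control by 2.81 ± 0.41 (adjusted p = 0.0109), with its probe saturated on 1 array. Elovl6, a fatty acid elongase, differed by 2.10 ± 0.39 (adjusted p = 0.0372), and Acly, which makes cytosolic acetyl-CoA, by 1.89 ± 0.36 (adjusted p = 0.0429). With slide as a block none of the 3 passed, at an adjusted p of 0.123 for Thrsp, 0.176 for Elovl6 and 0.177 for Acly. A dimmer Acly probe differed by 2.23 and did not pass in limma's test (adjusted p = 0.119). Srebf1, the gene of SREBP-1c itself, differed by 1.00 ± 0.26 (adjusted p = 0.125, with 1 low-dose array missing) and did not pass. The genes added by a dimmer probe, none saturated on any array, were Fasn, fatty acid synthase (2.34 ± 0.36, adjusted p = 0.0149), Acaca, an acetyl-CoA carboxylase (1.81 ± 0.24, adjusted p = 0.00879), and Acacb, its mitochondrial relative (1.33 ± 0.25, adjusted p = 0.0372). With slide as a block these too did not pass, at an adjusted p of 0.123, 0.089 and 0.177, and with normexp Acaca differed by 0.40 and Acacb by 0.014. These probes were named after their values were seen. In limma's test the brightest probes of these genes did not pass, at 0.14 for Fasn (adjusted p = 0.734), 0.84 for Acaca (0.232) and 0.67 for Acacb (0.235). Another Acaca probe, at 1.35, did not pass either (adjusted p = 0.0605). The brightest Acaca probe was itself dim, with a control mean of -3.05. The brightest Fasn probe was saturated on 10 arrays and the Scd1 probe on 9, so the differences at those probes are limited by the scanner.

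At the high dose 0 of these 29 genes passed in limma's test, with 15 higher than control and 14 lower. An unadjusted p under 0.05 was found for 3 of the 29 and for 7.29% of all probes. Thrsp differed from control by 1.30 ± 0.41 (adjusted p = 0.574), Srebf1 by 0.77 ± 0.25 (0.59), Scd1, the stearoyl-CoA desaturase, by -0.33 ± 0.12 (0.619) and Fads1, a fatty acid desaturase, by -0.32 ± 0.15 (0.69). Between the doses, 25 of the 29 were lower at the high dose and 4 higher. In limma's test 0 of them passed, and 0.00393% of all probes were called higher and 0.0393% lower. An unadjusted p under 0.05 was found for 13 of the 29 and for 7.66% of all probes.

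Genes of fasting and fatty acid oxidation, under the receptor PPARA and the factor FOXO1, were set beside Pnpla2, whose product supplies ligands to PPARA. At the low dose 15 of 18 were lower than control, with a median of -0.44 against -0.02 over all probes. The 3 that were higher were Pdk4 (0.16 ± 0.44), Igfbp1 (0.58 ± 0.36) and G6pc (0.71 ± 0.25). None of the 18 passed in limma's test, and 8 had an unadjusted p under 0.05, as had 12.3% of all probes. G6pc was among those 8, so they did not all go down. Creb3l3, a liver transcription factor of fasting, differed by -0.48 ± 0.13 (adjusted p = 0.143, 16 of 18 arrays with a value), Cpt1a, the gate to mitochondrial oxidation, by -0.69 ± 0.20 (0.151), and Acot1, an acyl-CoA thioesterase, by -1.53 ± 0.50 (0.209). At the high dose 16 of the 18 were lower than the same controls and 0 passed. An unadjusted p under 0.05 in limma's test was found for 3 of the 18 and for 7.29% of all probes. Creb3l3 differed from control by -0.35 ± 0.14 and Acot1 by -1.12 ± 0.50. Cyp4a14, a fatty acid hydroxylase, differed by -2.25 ± 1.41, with an SD of 3.43 among high-dose mice.

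Pnpla5 and Pnpla3 are adjacent on chromosome 15, on opposite strands, with 0 protein-coding genes between them in RefSeq. Their neighbours were examined after the members' values were seen. Sult4a1, a sulfotransferase, was at -1.75 ± 0.75 in low-dose mice and -2.53 ± 0.73 in controls (difference 0.78 ± 0.39, adjusted p = 0.437). Samm50, of the mitochondrial outer membrane, was at 4.43 ± 0.12 in low-dose mice and 4.45 ± 0.18 in controls (difference -0.02 ± 0.11). Parvb, Parvg and Mpped1 differed by -0.02, 0.25 and 0.13. Around Pnpla2, Slc25a22, Pidd1, Rplp2, Cracr2b, Cd151 and Polr2l differed by -0.29 to 0.17. None of these 11 neighbours passed in any comparison.

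Of the 8 genes whose profile over the 18 mice was nearest to Pnpla3, among 6390 genes with a range of at least 1 on the log2 scale, 7 are given here: Per2, Frmd8, Thrsp, Pnpla5, Rab23, Tfg and Sgsm1. Their mean absolute differences from the scaled Pnpla3 profile ran from 0.113 for Per2, a gene of the circadian clock, to 0.128 for Sgsm1. Per2 read 0.69, -0.33, -0.91, 0.03, -1.14 and 0.08 in low-dose mice 1 to 6, against -2.08, -1.71, -1.61, -1.85, -2.58 and -1.48 in control mice 1 to 6. The difference did not pass (1.62, adjusted p = 0.0937 in limma's test), and since Per2 was picked for its likeness to Pnpla3, the separation of these groups is no further result. In high-dose mice 1 to 6, Per2 read -2.25, 0.02, -1.83, -0.47, -2.39 and -0.86, with mice 2, 4 and 6 above every control.

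The profile nearest to Pnpla5 was that of Thrsp (0.066), and Pnpla3 (0.123), Chrna4 (0.124) and Acly (0.127) were also among the 5 nearest. Thrsp read 4.25, 6.03, 4.50, 6.59, 4.38 and 6.52 in high-dose mice 1 to 6, so mouse 2 was high for Thrsp and Pnpla3 and not for Pnpla5. The downstream Pnpla2 probe, the brighter one, was nearest to Peg12 (0.0956), Tmsb10 (0.138), Gem (0.149), Hdac5 (0.149) and Otof (0.151). The upstream probe, added after its values were seen, was nearest to Mmd (0.112), Ndrg1 (0.118), Paqr7 (0.119), Abcb1b (0.122) and Amotl2 (0.122). The 2 probes of Pnpla2 thus shared none of their 5 nearest genes.

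**Figure D5:**
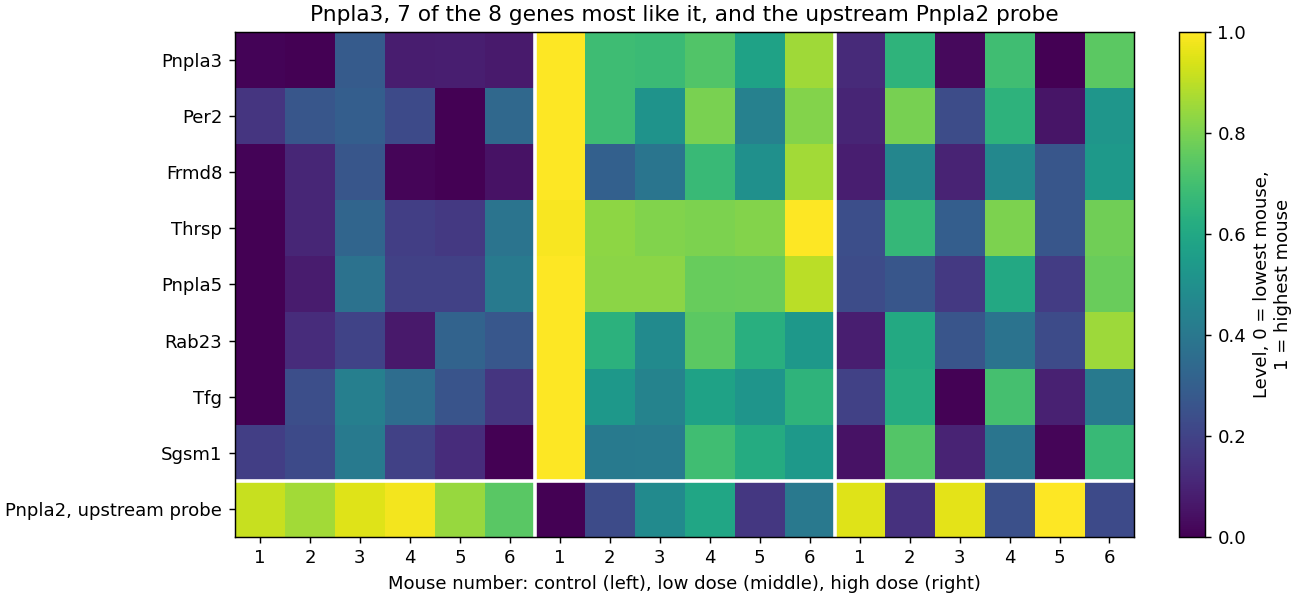
Level of Pnpla3, 7 of the 8 genes most like it and, below the white line, the upstream Pnpla2 probe (rows) in each mouse (columns, with control mice 1 to 6 at left, low-dose mice in the middle and high-dose mice at right), each row scaled so that its lowest mouse is 0 and its highest 1. The columns of the low-dose mice and of high-dose mice 2, 4 and 6 are lighter for Pnpla3 and darker for Pnpla2 than all other columns, with low-dose mice 3 and 4 in the middle of the scale for Pnpla2, and low-dose mouse 1 has a Pnpla3 level of 5.96 and an upstream Pnpla2 level of 0.47.

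The tissue label was checked against markers. Of the 10 hepatocyte markers, 8 had a probe that passed the filter, among them Alb, Ttr and Apoa1 on 18 of 18 arrays, with Alb saturated on 18 arrays and Apoa1 on 17. The 5 that were saturated on no array had a summed level, in multiples of the 75th percentile, of 292.6 to 460.9 in controls, 335.7 to 493.4 in low-dose mice and 293.5 to 373.4 in high-dose mice. Pnpla2 is also the lipase of fat cells, whose defining markers Adipoq, Lep and Plin1 were well above background on 0 of 18 arrays. Of the 8 adipocyte markers 4 passed the filter, and Car3, which hepatocytes also express and whose probe was saturated on 5 arrays, made up most of their sum. Without it, Fabp4, Pparg and Cfd summed to 3.37 to 5.61 in controls, 3.26 to 5.80 in low-dose mice and 2.17 to 5.90 in high-dose mice. Cfd, well above background on 6 arrays, differed from control by 0.71 at the low and 1.25 at the high dose (adjusted p = 0.603 and 0.642), and its part in the members' values was not tested. The 8 markers of B cells and MHC class II summed to 3.34 to 8.06 in controls, 4.80 to 10.3 in low-dose mice and 6.54 to 16.5 in high-dose mice, and their part in the members' values was not tested. In these bulk samples, fewer cells of a type and less RNA per cell cannot be told apart.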

How the data were processed

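Liver RNA was measured in 18 mice, 1 per 1-colour Cy3 Agilent array. The authors deposited scanner intensities, background-subtracted and detrended within each array but not normalised between arrays, per the file headers. The authors also deposited a table of log2 values, whose normalisation and choice of probes are not given in the sources used here. Agilent Feature Extraction 9.5 and limma are named without steps, per the submitters' processing notes. Probe positions are on build mm8, per the file headers. Gene names were updated through transcript accessions in a RefSeq table (GRCm38.p6, used for names, neighbours and promoter sequence), which matched 17148 of the 25427 probes kept.

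Here, log2 of the background-subtracted intensity minus each array's 75th percentile was used, after dropping outlier-flagged spots and averaging repeated spots. A probe was kept when well above background on at least 6 of 18 arrays. Of those kept, 553 lacked a value on some array. Groups were compared with limma 3.58.1 (R 4.3.3; lmFit and eBayes), all arrays in 1 fit, probe by probe, with Benjamini-Hochberg adjustment over 25427 probes, 2-sided, at 0.05. The fit was tested on simulated data. Precision is limited by the number of arrays, with a median SE of 0.16 for a low-dose minus control difference.

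The members and the 11 gene lists were chosen with earlier results of these data known, so no member carries a p. A list is read from each gene's brightest kept probe and described by counts and its median. Named genes are, per pathway list, those past the threshold and up to 4 with the smallest p at each dose, all family members, and the nearest 8 profiles to Pnpla3 and 5 to each other member; a few of them are not reported here. Chosen after values were seen were the neighbours, the regulators Abhd5 and G0s2, Hilpda, and the likeness of the upstream Pnpla2 probe. So were Pdk4, Igfbp1, G6pc, the dimmer probes of Fasn, Acaca and Acacb, and the other Lpin1 and Acly probes. The alternatives were other scalings, background, filters, probe choice, the deposited table, slide or mouse number as a block, fits of 2 groups, leaving out each mouse and, chosen after seeing the data, no scaling.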

Additional observations from a re-analysis of the deposited data

Results flagged for a closer look

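Control mouse 3 stood apart from the other controls for Pnpla3. It read 1.72, against 0.01 to 0.50 in the other 5 controls. Its gap to the nearest of them was 0.712 of the whole range of the group, past the limit used to mark a sample as far from the rest of its group (Dixon), which is given as a description since the gene was selected on these values. It was still 1.72 below the lowest low-dose mouse. This was 1 of 12 groups examined, 3 for each of the 4 probes, and chance flags about 1 in 20 groups.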

How the results depend on the processing

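For the members, Pnpla3 low dose minus control ran from 3.59 to 4.34 over 11 other settings and from 3.68 to 4.21 without any 1 mouse, and Pnpla5 from 1.55 to 2.19 and from 1.70 to 1.94. The downstream Pnpla2 probe moved to 0.057 for low dose minus control and 0.022 for high minus low dose with normexp. Without scaling it moved to 0.15 at the low and 0.40 at the high dose (minus control), and the upstream probe to -0.17 and 0.075, the last with its sign turned. Without scaling the median probe differed from control by 0.34 at both doses. With normexp it differed by -0.16 for low dose minus control and by 0.12 for high minus low dose. The cause of these moves was not tested.

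The 57 probes past the threshold at the low dose became 15 with array medians, 7 with normexp, 15 with no filter on dim probes, 124 with a filter on all arrays, 4 with slide as a block, 13 with the mouse number as a replicate block, 142 when only these groups entered and 936 without scaling. Without 1 mouse the count was 7 to 109. The 11 between the doses became 7 with array medians, 1 with normexp, 4 with no filter, 5 with the brightest probe per gene, 0 with slide as a block, 0 with the replicate block, 0 with only these groups and 0 without scaling, and 0 to 17 without 1 mouse. For high dose minus control it was 0 under every setting run. The causes were not tested. The mouse numbers were not taken to pair the mice, and whether they do was not settled. Same-numbered pairs correlated from -0.29 to 0.33, with 7 of 18 above 0.1. A mouse matched its own number best in 11 of 36 tries, where chance gives 6, and this excess was not tested.

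Of the list genes past the threshold, Thrsp passed in 28 of 29 settings and failed with slide as a block (adjusted p = 0.123). Gpam passed in 25, failing with normexp, with slide as a block, without control 5 and without low-dose mouse 6 (adjusted p 0.00735 to 0.123 over all). Elovl6 passed in 13 (0.0135 to 0.176), Acly in 13 (0.018 to 0.177) and Lpin1 in 12 (0.024 to 0.177). Elovl6 and Acly each failed without controls 1, 2, 4, 5 or 6, without low-dose mice 1, 3, 5 or 6 and without high-dose mice 1 or 3. Lpin1 failed without any of the 6 controls, without low-dose mice 1, 2, 3 or 6 and without high-dose mice 1 or 3. These 3 also failed with array medians, normexp, no filter on dim probes and the replicate block, 4 settings. Of the genes read from a dimmer probe, Acaca passed in 26 of 28 settings (not with normexp or slide as a block) and Fasn in 24 (not with slide or the replicate block, without control 5 or without low-dose mouse 6). Acacb passed in 11, failing with the same 4 settings, with slide as a block, and when 1 mouse was left out (control 1, 2, 4, 5 or 6; low-dose 1, 2, 3, 5 or 6; high-dose 1 or 3). With slide as a block all 8 failed. All 8 kept their direction under each setting. The number of arrays and 1 probe each for Pnpla3 and Pnpla5 limit what these values can show.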
